A study of Homo sapiens with 6 samples.

Results

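MYC is a transcription factor that binds DNA as a dimer with MAX, while the proteins of MXD1, MXD4, MXI1 and MNT compete with it for MAX and repress. Among the best known targets of MYC are the genes for making ribosomes, a process that starts in the nucleolus, where RNA polymerase I transcribes the long precursor of the ribosomal RNAs. Small nucleolar ribonucleoproteins (snoRNPs) then modify this precursor, and large sets of assembly factors cut and fold it into the small and the large ribosomal subunit. The mRNA levels of 40 genes of this system, of 63140 genes listed in the files, were compared between BT-549 cells in adipocyte-conditioned medium (ACM) and in unconditioned medium (UCM). The genes were chosen by function, with earlier results of these data known, and were matched by symbol. All 40 were found and had enough counts to be tested. By role, 6 belong to the MYC network, 4 to RNA polymerase I, 8 to the snoRNPs, 4 encode abundant nucleolar proteins, 9 act on the large subunit and 9 on the small subunit.

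BT-549 is an established triple negative breast cancer line, and the cultures here were wild type, without the reporter transgene of the study. Cells were kept in RPMI-1640 with serum and insulin, and 3 wells were grown in ACM and 3 in UCM for 24 h before polyA RNA was sequenced. ACM was a medium of insulin, oleate and albumin taken from differentiating OP9 mouse cells. The labels describe ACM as diluted and the supplement of the paper as undiluted, and the formula of UCM is not given in the sources used here, so that base medium, serum, oleate and insulin cannot be told apart from adipocyte secretions. All wells came from the same cell line, and no source says that they were seeded from separate cultures, so the p-values measure the spread between these wells. Library totals of expected counts ran from 17135288 to 21053257, and 2.12 to 3.84% of them were mitochondrial, with replicate 1 of each group (3.84% in ACM and 3.52% in UCM) above the other libraries. The labels call the cells epithelial, but EPCAM, KRT8 and KRT18 had at most 14 counts in any library, while the mesenchymal gene VIM was between 2736 and 3554 CPM (counts scaled to library size). CDH1, a further epithelial gene, had 8 to 34 counts per library, or 0.45 to 1.83 CPM. ESR1 and PGR, the hormone receptor genes, had 0 counts in every library, which allows up to 3 counts per library, whereas ERBB2 lay between 61.6 and 75.0 CPM. Of 5 adipocyte genes, ADIPOQ, CIDEC and LEP were at 0 in all libraries and PLIN1 and FABP4 had at most 2 counts.

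The letters CACGTG, the E-box that MYC and MAX recognise, were looked up in the RefSeq promoter windows (GRCh38.p14), which run from 250 bases before to 50 bases after a gene start. CACGTG reads the same on both strands. Windows were given for 34 of the 40 genes, 45 windows in all, and 14 of these windows (31.1%), each of a different gene, held the letters. The share was 9.26% of the 15181 windows of genes tested here and 7.26% of all 35116 windows. The related letters CACGCG, or CGCGTG on the other strand, stood in 12 of the 45 windows (26.7%), against 17.4% of the windows of genes tested and 11.4% of all windows. The 9 stretches below are those with CACGTG whose gene had a raw p-value under 0.05 between ACM and UCM, written 5′ to 3′ on the strand of the gene with the E-box in capitals.
BYSL, chr6:41921515-41921544, plus strand: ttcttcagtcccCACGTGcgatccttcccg
UTP4, chr16:69132621-69132650, plus strand: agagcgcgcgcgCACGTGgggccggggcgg
RRP9, chr3:51941892-51941921, minus strand: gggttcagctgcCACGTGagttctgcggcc
NOP2, chr12:6568242-6568271, minus strand: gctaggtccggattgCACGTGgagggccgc
GAR1, chr4:109815781-109815810, plus strand: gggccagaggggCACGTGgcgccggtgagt
UTP20, chr12:101280083-101280112, plus strand: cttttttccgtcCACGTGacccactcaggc
NOP14, chr4:2963374-2963403, minus strand: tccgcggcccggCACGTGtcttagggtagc
MXD4, chr4:2262330-2262359, minus strand: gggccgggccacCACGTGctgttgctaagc
MNT, chr17:2401236-2401265, minus strand: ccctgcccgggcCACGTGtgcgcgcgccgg

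In the 7 ribosome biogenesis genes of this group the E-box began between 16 bases before and 35 bases after the gene start, and by GENCODE 44 it overlapped an annotated exon in BYSL, UTP4, RRP9, NOP2, GAR1 and NOP14 and none in UTP20. In MNT and MXD4, which encode repressors, it began 193 and 238 bases before the gene start, outside any exon of the gene. The group was picked by p-value. Its biogenesis genes had lower mean levels in ACM, and MNT and MXD4 had higher ones. Of the biogenesis genes lower at the adjusted p-value, given below, BYSL and UTP4 held CACGTG in a window, and NPM1, NCL and DKC1 did not. Whether the E-box goes with a change was not tested. The sites are matches of letters in the reference, and no binding was measured.

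MYC and its antagonist MXI1 rose in ACM, and 5 of the ribosome biogenesis genes fell. By edgeR's quasi-likelihood test with an adjusted threshold of 0.05, 2 of the 40 genes were higher (MYC and MXI1) and 5 were lower (NPM1, NCL, DKC1, UTP4 and BYSL). Over all 14451 genes tested, 3.35% rose and 2.21% fell by the same rule. With the same threshold on the raw p-value, 4 of the 40 were higher and 15 were lower, against 11.9% and 11.5% of all genes tested. The changes were small, and MXI1 alone passed the fold threshold of the study, a log2 ratio of ACM to UCM of 0.58 in either direction with a raw p-value under 0.05, which 5.83% of all genes tested passed. The log2 ratio was below 0 for 28 of the 34 biogenesis genes and for 51.9% of all genes tested. By GENCODE 44 (GRCh38) the 7 called genes, all protein-coding, lie at chr10:110207605-110287365 (MXI1), chr5:171387116-171411810 (NPM1), chrX:154762742-154777689 (DKC1), chr2:231453531-231483641 (NCL), chr16:69131291-69231130 (UTP4) and chr6:41921499-41933046 (BYSL), and MYC on chromosome 8. In bulk RNA, a smaller number of cells with a transcript and less of it per cell cannot be told apart.

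**Figure D1:**
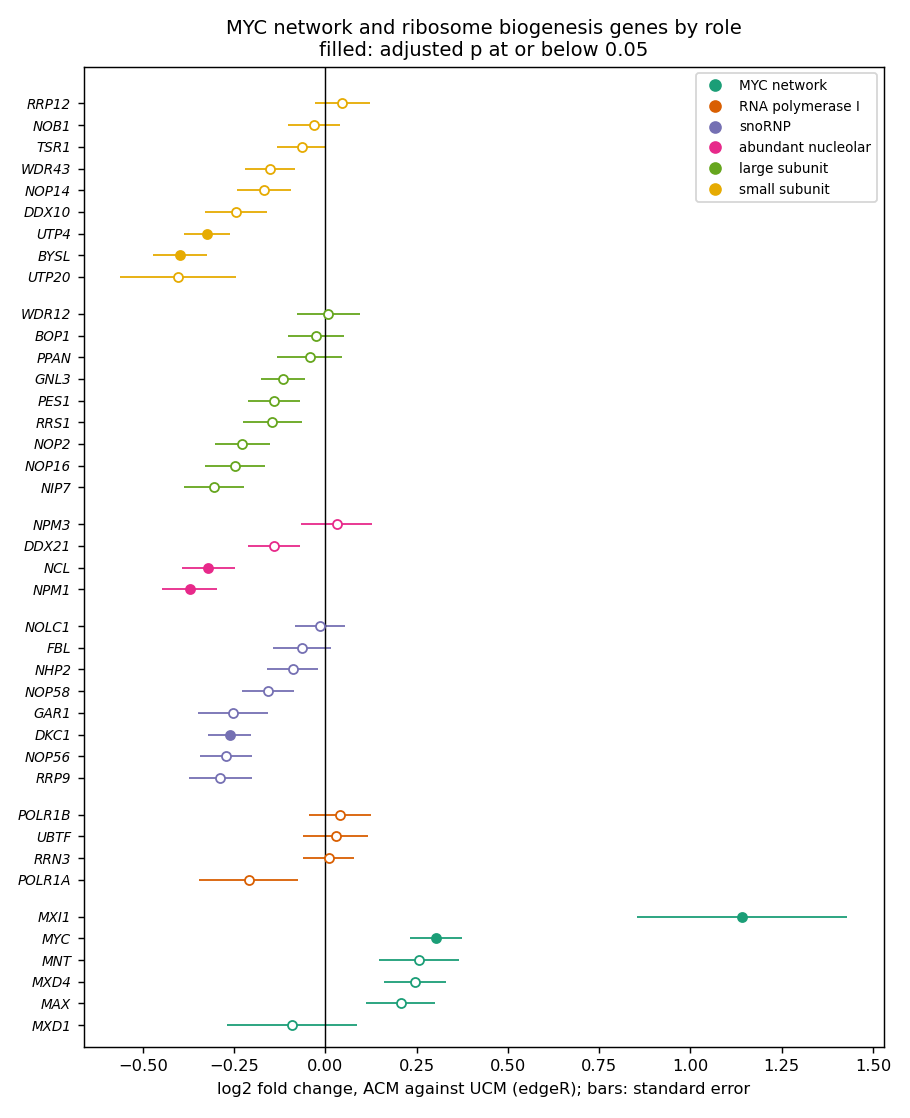
Log2 ratio of ACM against UCM for the 40 genes, grouped by role, with horizontal bars for the standard error from edgeR. Filled points passed an adjusted p-value of 0.05. Of the 6 MYC network genes 5 lie right of 0, and of the 34 biogenesis genes 28 lie left of it.

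MYC stood at 179, 183 and 196 CPM in ACM replicates 1, 2 and 3 and at 150.5, 142 and 160.4 CPM in UCM. All ACM values lay above all UCM values. The means were 186 ± 8.76 and 151 ± 9.42 CPM (ACM and UCM, SD, n = 3 each), giving a log2 ratio of 0.30 (standard error, SE, 0.07, edgeR's adjusted p = 0.0371), or 23.3% more. Leaving out single libraries moved the log2 ratio of MYC between 0.26 and 0.36. The call was lost without ACM replicate 2 or 3 and without UCM replicate 2 or 3, the highest adjusted p in edgeR being 0.188 without UCM replicate 2. The effective lengths that RSEM gave MYC were nearly equal, 1928 bases in ACM and 1950 in UCM, and with lengths as offsets its adjusted p in edgeR was 0.0523.

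MXI1, whose protein takes MAX from MYC and recruits corepressors, had the largest log2 ratio of the 40 genes and was among the lowest in level. Its values were 6.61, 10.8 and 5.27 CPM in ACM and 4.26, 2.74 and 3.21 CPM in UCM. The lowest ACM value was above the highest UCM value, and ACM replicate 2 stood well above the other ACM libraries. The log2 ratio was 1.14 (SE 0.29, edgeR's adjusted p = 0.0497), and it was 0.80 without ACM replicate 2 (edgeR's adjusted p = 0.167). The call was also lost without ACM replicate 1 and without UCM replicate 2 or 3.

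The other genes of the network did not pass the adjusted p-value. MXD4 stood at 86.8, 84.3 and 84.7 CPM in ACM and 63.6, 73.2 and 79.1 CPM in UCM, groups that did not overlap, with a log2 ratio of 0.25 (SE 0.09, edgeR's adjusted p = 0.118). MNT, a widely expressed repressor partner of MAX, had a log2 ratio of 0.26 and MAX itself 0.21 (edgeR's adjusted p = 0.189 and 0.223), and for each the ACM and UCM values overlapped. Without ACM replicate 1 the log2 ratio of MNT was 0.17, and without ACM replicate 2 that of MAX was 0.14. MXD1 was at 4.46 to 5.80 CPM in ACM and 5.13 to 5.54 CPM in UCM. Summed over the 6 genes, the network held 386, 389 and 379 CPM in ACM and 317, 302 and 332 CPM in UCM.

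Between genes, levels were compared per length as TPM. MYC averaged 111 ± 5.55 TPM in UCM (SD, n = 3) against 35.7 for MAX, 31.0 for MXD4, 23.5 for MNT, 3.34 for MXI1 and 1.46 for MXD1. In UCM the means of MAX and MXD4 differed by less than the SD of MAX. The ratio of the TPM of MYC to the summed TPM of the 4 repressors was 1.78, 1.88 and 2.06 in ACM and 1.74, 2.02 and 1.87 in UCM. These ranges overlapped, and a shift of MYC against its antagonists was not tested. MXD4 and MNT held most of the summed TPM, so that a change of MXI1 moves the sum little. The ratio of MYC to MAX was 2.84 to 3.67 in ACM and 2.58 to 3.64 in UCM, which overlapped as well.

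**Figure D2:**
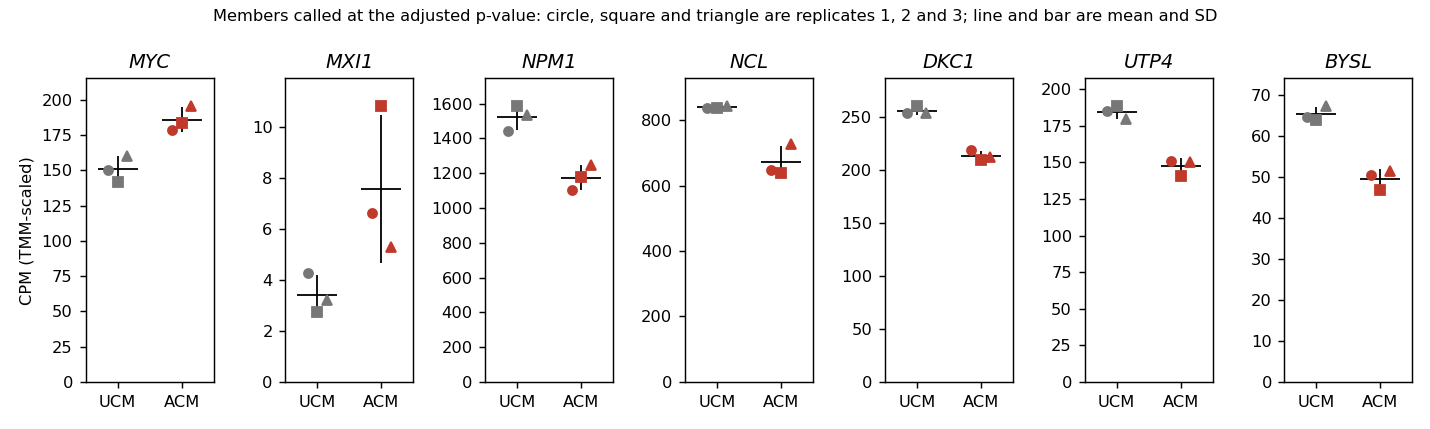
TMM-scaled CPM of the 7 genes that passed an adjusted p-value of 0.05, in each UCM (grey) and ACM (red) library, with the replicates as symbols and the mean and SD as line and bar; every axis starts at 0. In every panel the ACM and UCM libraries do not overlap, and the ACM values of MXI1 spread from 5.27 to 10.8 CPM.

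The abundant nucleolar proteins include the highest transcript of the set. NPM1, nucleophosmin, a chaperone of ribosomal particles and histones, stood at 1101, 1178 and 1245 CPM in ACM and at 1440.1, 1586 and 1535 CPM in UCM. All ACM libraries lay below all UCM libraries. Its log2 ratio was -0.37 (SE 0.08, edgeR's adjusted p = 0.0220), or 22.7% less, and in TPM it averaged 1567 in ACM and 2056 in UCM. RSEM divides reads between NPM1 and its 49 annotated pseudogenes, whose counts came to 0.911 to 1.05% of those of NPM1 and were also lower in ACM, with 209 to 219 against 271 to 320 in UCM.

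NCL encodes nucleolin, which binds the ribosomal RNA precursor and its genes. It stood at 648, 639.8 and 728 CPM in ACM and at 837, 838 and 843 CPM in UCM. The UCM libraries were almost level, with an SD of 3.25 CPM, while the ACM libraries had an SD of 48.7 CPM and all lay lower. The log2 ratio was -0.32 (SE 0.07, edgeR's adjusted p = 0.0320). DDX21, an RNA helicase that acts with RNA polymerase I and on snoRNAs, was also lower in every ACM library (415 to 464 CPM) than in any UCM library (468 to 502 CPM), with a log2 ratio of -0.14 (edgeR's adjusted p = 0.263), or -0.06 without replicate 1 of both groups. NPM3, a relative of NPM1, was at 41.2 to 47.9 CPM in ACM and 38.5 to 46.6 CPM in UCM.

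All 8 snoRNP genes had a log2 ratio below 0, beside 51.9% of all genes tested, and DKC1 passed the adjusted p-value. DKC1 encodes dyskerin, the pseudouridine synthase of the box H/ACA snoRNPs and a part of telomerase. It stood at 218, 209 and 212 CPM in ACM and at 254, 260.1 and 253 CPM in UCM, tight groups far apart, with a log2 ratio of -0.26 (SE 0.06, edgeR's adjusted p = 0.0335). The call of DKC1 held in 8 of 16 alternative settings. It was lost without ACM replicate 1, 2 or 3 and without UCM replicate 2 or 3, and limma on log2(TPM + 1) called 0 snoRNP genes lower. GAR1, another H/ACA core protein, had a log2 ratio of -0.25 (edgeR's adjusted p = 0.141) with groups apart, whereas NHP2, a further H/ACA core protein, had -0.09 with groups that overlapped. Among the core proteins of the box C/D particle, which methylates the precursor, NOP56 stood at 232, 211 and 207 CPM in ACM and 272, 264 and 249 CPM in UCM. Its log2 ratio was -0.27 and it lay at the threshold (edgeR's adjusted p = 0.0503, 0.0133 to 0.189 over the alternatives). NOP58 had a log2 ratio of -0.16 with groups apart, which was -0.055 with effective lengths as offsets, and FBL, the methyltransferase of the particle, had -0.06 with groups that overlapped. RRP9, which belongs to the U3 particle of precursor cleavage, had -0.29 (edgeR's adjusted p = 0.0813). NOLC1, a chaperone of snoRNPs, was at 291 to 331 CPM in ACM and 304 to 321 CPM in UCM, and the sign of its log2 ratio changed with some alternatives.

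On the small subunit, UTP4 and BYSL fell. UTP4 encodes a part of the complex that first assembles on the precursor during its transcription, and it stood at 151, 141 and 150.4 CPM in ACM and at 185, 189 and 179.5 CPM in UCM. BYSL, bystin, is a late assembly factor of the small subunit and stood at 50.4, 46.8 and 51.5 CPM in ACM and at 64.6, 64.0 and 67.3 CPM in UCM. For both genes every ACM library lay below every UCM library. The log2 ratio was -0.32 for UTP4 (SE 0.06, edgeR's adjusted p = 0.0186) and -0.40 for BYSL (SE 0.07, edgeR's adjusted p = 0.0146). Of 16 alternative settings, BYSL passed in 13, NPM1 in 12, UTP4 in 10, NCL, MYC and MXI1 in 9 each and DKC1 in 8. UTP20, a large scaffold of the processome, had the lowest log2 ratio of the 40 genes, -0.40, but a standard error of 0.16 (edgeR's adjusted p = 0.177). Its UCM replicate 1 was at 81.4 CPM against 59.8 and 58.2 CPM in the other UCM libraries, and ACM lay at 41.4 to 55.9 CPM. Without UCM replicate 1 the log2 ratio of UTP20 was -0.22 and no longer the lowest of the 40. DDX10, NOP14 and WDR43, processome factors, had a log2 ratio of -0.25, -0.17 and -0.15, each with groups apart. With effective lengths as offsets, those of DDX10 and WDR43 were -0.12 and -0.085, and the effective length of DDX10 was 2596 bases in ACM and 2820 in UCM. TSR1, NOB1 and RRP12, which act on late precursors, lay between -0.07 and 0.05 with groups that overlapped.

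Of the 9 large subunit genes none passed the adjusted p-value from edgeR. At the raw p-value threshold 3 were lower, beside 11.5% of all genes tested, and DESeq2 called 1 lower. That gene was NIP7, a factor of precursor processing, at 67.8, 67.1 and 77.2 CPM in ACM and 93.4, 84.2 and 84.5 CPM in UCM. The groups did not overlap, and the log2 ratio was -0.31 (SE 0.08, edgeR's adjusted p = 0.0552). The exons of NIP7 overlap those of COG8 on the opposite strand, and whether reads were counted by strand is not given in the sources used here, so the pair cannot be told apart there. NOP16, whose exons overlap those of HIGD2A and ARL10, and NOP2, an RNA methyltransferase, had a log2 ratio of -0.25 and -0.23 with groups apart. The PES1, BOP1 and WDR12 proteins form a single complex, and their genes had a log2 ratio of -0.14, -0.03 and 0.01. PES1 alone of these had groups apart, at 135 to 156 CPM in ACM and 159 to 164 CPM in UCM. GNL3, nucleostemin, and RRS1 were also lower in every ACM library, by a log2 ratio of -0.12 and -0.15. Without ACM replicate 2 the log2 ratio of RRS1 was -0.066 and that of PES1 -0.085. The values of PPAN, whose exons are shared with a read-through transcript, overlapped between the groups. Exons of GNL3 (GLT8D1), PES1 (TCN2) and WDR12 (CARF and NBEAL1) also overlap those of the genes in brackets on the opposite strand.

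The 4 genes of RNA polymerase I transcription had no call in edgeR, DESeq2 or limma, and none at the raw p-value threshold. POLR1B, which encodes the second largest subunit, RRN3, the factor that recruits the enzyme, and UBTF, which opens the ribosomal genes, had a log2 ratio of 0.04, 0.01 and 0.03, and their signs changed with some alternatives. POLR1A, the gene of the largest subunit, had -0.21 (SE 0.14, edgeR's adjusted p = 0.401), with 96.4, 70.6 and 87.8 CPM in ACM and 114, 86.8 and 93.8 CPM in UCM. In both groups the spread between libraries of POLR1A was as large as the difference between the means, and the log2 ratio was -0.093 without ACM replicate 2 and -0.078 without UCM replicate 1. Reads of RRN3 were divided with 5 annotated pseudogenes, whose counts were 5.00 to 10.2% of its own. The ribosomal RNA itself is not polyadenylated and was not measured here.

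**Figure D3:**
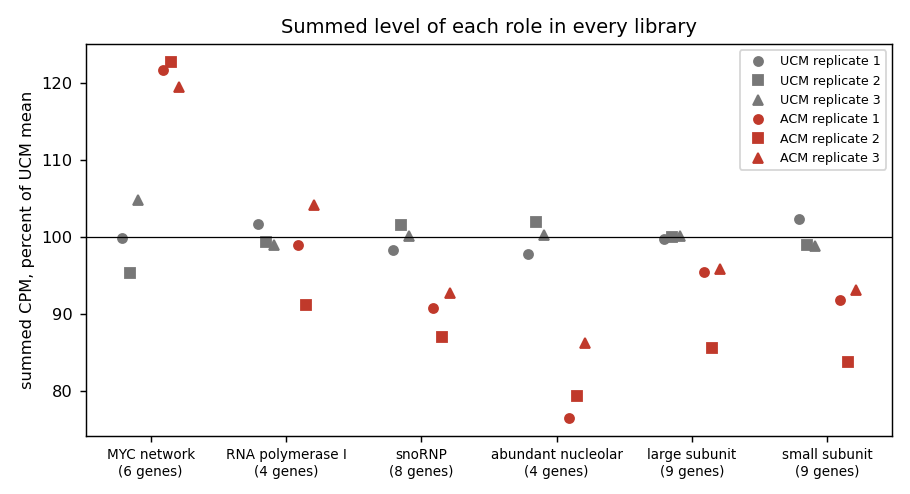
Summed CPM of the genes of each role in every library, as a percentage of the mean of the UCM libraries, with grey symbols for UCM and red symbols for ACM; the axis does not start at 0. The ACM libraries lie at 119% or more for the MYC network and below every UCM library for the snoRNP, nucleolar, large subunit and small subunit genes, while ACM replicate 3 is above UCM for RNA polymerase I.

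Summed over the 34 biogenesis genes, the level was 5795, 5609 and 6141 CPM in ACM and 6672, 6798 and 6728 CPM in UCM. Every ACM library was lower, and the mean was 13.1% lower in ACM. NPM1 held much of this sum, and without it the other 33 genes were 10.3% lower, at 4430.4 to 4896 CPM in ACM and 5194 to 5232 CPM in UCM. Among the ACM libraries, replicate 2 was lowest for the RNA polymerase I, snoRNP, large subunit and small subunit sums, at 91.2%, 87.0%, 85.7% and 83.7% of the UCM mean, while replicate 1 was lowest for the abundant nucleolar genes. For 20 of the 34 genes (58.8%) all ACM libraries lay below all UCM libraries and for 0 they lay above, against 15.1% and 13.9% of all genes tested. The median log2 ratio of all 40 genes was -0.13, and it was -0.15 over the 34 biogenesis genes, beside -0.01 over all genes tested and -0.02 over the 10788 tested genes within the CPM range of the 40. Without ACM replicate 2 the median of the 40 was -0.08, and no member passed the adjusted p-value from edgeR. None passed without UCM replicate 2 or without UCM replicate 3 either. Without ACM replicate 1, the calls of MXI1, NPM1, NCL and DKC1 were lost and NOP56 passed. Without ACM replicate 3, those of MYC and DKC1 were lost. Over all genes, the calls went from 484 higher and 320 lower to 197 and 87 without ACM replicate 2, 125 and 70 without UCM replicate 2 and 156 and 62 without UCM replicate 3. They were 415 and 206 without ACM replicate 1, 320 and 190 without ACM replicate 3, and 738 and 572 without UCM replicate 1.

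The wider pathway was read from lists of 125 further biogenesis genes, chosen with earlier results of these data known, and all were tested. Of these, 110 had a log2 ratio below 0, against 51.9% of all genes tested. Past the adjusted threshold 5 of the 125 fell and 1 rose, beside 2.21% and 3.35% of all genes. By the raw p-value 37 (29.6%) were lower and 2 higher, beside 11.5% and 11.9% of all genes. Their median log2 ratio was -0.14, and for 59 of them (47.2%) the ACM libraries all lay below the UCM libraries, beside 15.1% of all genes. DIMT1, a methyltransferase of the small subunit RNA, had a log2 ratio of -0.38 (edgeR's adjusted p = 0.0246), with 45.9 to 49.0 CPM in ACM and 57.5 to 66.5 CPM in UCM. PAK1IP1, MRTO4 and GTPBP4, large subunit factors, had -0.35, -0.33 and -0.29, and POLR1E, a subunit of RNA polymerase I, had -0.32 (edgeR's adjusted p between 0.0275 and 0.0471). None of the 125 passed without ACM replicate 2, UCM replicate 2 or UCM replicate 3. Over all 146 further genes tested, those of the MYC lists included, the number that fell was 5 in the full data, 1 without ACM replicate 1 and 10 without UCM replicate 1.

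The gene that rose was NOP53, a nucleolar protein that brings the exosome to large subunit precursors. It stood at 150.1, 191 and 176 CPM in ACM and 124, 128 and 132 CPM in UCM, with a log2 ratio of 0.43 (SE 0.09, edgeR's adjusted p = 0.0228), and it did not pass without ACM replicate 3 either. By list, 15 of 17 other RNA polymerase I genes and 44 of 47 other small subunit genes had a log2 ratio below 0. So had 41 of 48 genes of the other large subunit list and 10 of 13 exonuclease and exosome genes, beside 51.9% of all genes tested. The medians were -0.17, -0.14, -0.13 and -0.15 in that order. The other large subunit list also holds NOP10, an H/ACA core protein, and PPAN-P2RY11, the read-through transcript that shares exons with PPAN. No exonuclease or exosome gene was called by edgeR, DESeq2 or limma, while 6 of the 13 were lower at the raw p-value, beside 11.5% of all genes tested. The smallest p-values were those of ISG20L2 and MTREX (log2 ratio -0.22 and -0.20), while EXOSC7 and EXOSC9, core proteins of the exosome, had the lowest log2 ratios (-0.25 and -0.24).

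**Figure D4:**
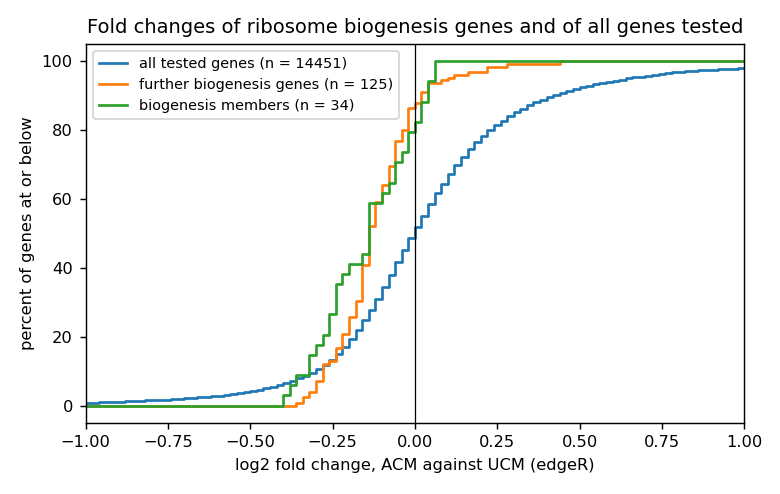
Cumulative share of genes at or below each log2 ratio of ACM against UCM, for all 14451 genes tested, the 125 further biogenesis genes and the 34 biogenesis members. The curves of both biogenesis sets lie left of 0 for most of their genes, with medians of -0.14 and -0.15, while that of all genes crosses its median at -0.01.

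Further genes tied to MYC gave no calls in the edgeR test reported here. Of 7 tested paralogs and partners, which include MGA and MLX, none was called by edgeR, DESeq2 or limma, and 1 was higher at the raw p-value (MYCBP, log2 ratio 0.26). MXD3 had a log2 ratio of -0.13. MYCN and MLXIPL had 0 counts in every library. Among 14 tested targets of MYC outside ribosome biogenesis none was called by edgeR, DESeq2 or limma, and at the raw p-value 2 were higher and 4 were lower, beside 11.9% and 11.5% of all genes tested. Under the replicate block 1 of them was lower. ODC1, the rate-limiting enzyme of polyamine synthesis, had a log2 ratio of -0.26 and LDHA, lactate dehydrogenase, 0.23 (edgeR's adjusted p = 0.0914 and 0.135). Over the 16 alternatives, ODC1 passed in 4, LDHA and SRM in 2 each and TFRC in 1. The median of these targets was -0.08.

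Of 5 genes of proliferation, CCNB1 fell by edgeR, while DESeq2 called 3 lower (CCNB1, MKI67 and TOP2A) and 1 higher (CCND1). Over all genes tested, edgeR called 2.21% lower, and DESeq2 called 420 of 25484 lower and 726 higher. CCNB1, a cyclin of mitosis, stood at 289, 247 and 284 CPM in ACM and 332, 382 and 366 CPM in UCM (log2 ratio -0.40, edgeR's adjusted p = 0.0236, up to 0.122 over the alternatives). MKI67 and TOP2A had a log2 ratio of -0.48 and -0.24 with groups apart, and PCNA had -0.17 with groups that overlapped (edgeR's adjusted p = 0.118, 0.0626 and 0.249). CCND1, cyclin D1, was higher in every ACM library, with a log2 ratio of 0.48 (edgeR's adjusted p = 0.0577). At the raw p-value 3 of the 5 genes were lower and 1 was higher, beside 11.5% and 11.9% of all genes tested. The part of these 5 genes in the lower biogenesis transcripts was not tested.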

How the data were processed

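PolyA-enriched RNA of 3 ACM and 3 UCM wells was read in pairs. Per the paper's methods and the labels, Trim Galore, STAR (GRCh38) and RSEM were the tools that the authors ran for trimming, alignment and quantification (versions and annotation are not given in the sources used here). The authors deposited for each library the expected count, which is not scaled for depth, the TPM, scaled by the gene's effective length in that library, and the effective length. A further table of the authors' own fold changes and p-values was not used. Identifiers of 61547 of the 63140 genes matched GENCODE 44.

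The rounded expected counts entered edgeR 4.0.16 (R 4.3.3) with filterByExpr, which kept 14451 genes, and TMM scaling. A robust quasi-likelihood model held condition alone, and p-values were adjusted over all genes tested (Benjamini-Hochberg). CPM values are TMM-scaled. The coefficient of biological variation was 0.115. Groups were called apart when the ranges of the 3 ACM and 3 UCM values did not overlap. The steps were tested on simulated data. At the adjusted threshold, 90.8% of 98 genes given a log2 change of 1 were recovered. Of 99 genes given a log2 change of 0.5 the share was 44.4%, so changes of that size or smaller can be missed. With no change simulated, 0 of 14270 genes were called. The 40 genes and the lists were chosen with earlier results of these data known. Any of the 40 may be named, and of each further list up to 5 genes at the adjusted p-value or the 2 with the smallest p-value. MGA, MLX, MXD3, MYCN, MLXIPL, SRM, TFRC, EXOSC7 and EXOSC9 were named after their values were seen. Alternatives were DESeq2 1.42.0, RLE size factors, other filters (at least 1 count in total, or 10 in every library), limma-trend 3.58.1 on log2(TPM + 1) and log2(TPM + 0.1), effective lengths as offsets, a replicate block, protein-coding genes only and each library left out. Of the 40 genes 12, none of them called, share exon positions with another gene above 1 CPM. These are MAX, MXD1, UBTF, NHP2, PES1, WDR12, NOP16, NIP7, PPAN, GNL3, NOP14 and TSR1.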

Additional observations from a re-analysis of the deposited data

How the results depend on the processing

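Over 16 alternatives, the 40 genes gave 552 values that kept their sign and their side of the threshold, 42 that lost and 15 that gained a call, and 31 that changed sign. With 1 count in total as the filter, 9 of the 40 genes fell, and of the 146 further genes 2 rose and 13 fell, while over all genes the calls went from 484 higher and 320 lower to 1045 and 679, with 25486 in place of 14451 genes tested. With RLE size factors 3 further genes fell. With limma-trend on log2(TPM + 1) or log2(TPM + 0.1), and with effective lengths as offsets, 0 of the 40 rose and 2 fell, and 0 further genes rose and 1 fell. The replicate block gave 9 of the 40 and 15 further genes lower, and it also raised the calls over all genes to 909 higher and 703 lower. Same-numbered libraries deviated together with correlations of 0.32, 0.03 and 0.18, and not every library correlated best with its own number. In log2 CPM, replicate 1 of ACM and replicate 1 of UCM correlated with each other at 0.9862. Within its own group, ACM replicate 1 reached at most 0.9851 and UCM replicate 1 at most 0.9845. The numbers were not taken as pairs in the main test, and a shared effect of replicate 1 was not tested. Without replicate 1 of both conditions, an alternative chosen after seeing the data, 8 of the 40 fell, and 4 further genes rose and 13 fell, with 1017 higher and 726 lower over all genes. With each library left out in turn, 0 to 2 of the 40 rose and 0 to 5 fell, at the unadjusted p-value 3 to 5 and 10 to 16, the median log2 ratio was -0.14 to -0.078, and 0 to 1 further genes rose and 0 to 10 fell. The cause of these differences was not tested. The 31 changes of sign belong to 10 genes near 0, none of them called. Under limma-trend with 1 and 0.1 added, the log2 ratio was -0.018 and -0.019 for POLR1B, -0.044 and -0.045 for RRN3, -0.024 in both for NPM3, -0.052 and -0.053 for WDR12 and -0.017 in both for RRP12. With effective lengths it was -0.021 for RRN3, -0.025 for WDR12 and 0.021 for PPAN. Without replicate 1 of both conditions it was -0.0023 for UBTF, 0.036 for NOLC1, -0.0095 for RRP12 and 0.018 for NOB1. With single libraries left out it ranged from -0.015 to 0.059 for RRN3, -0.054 to 0.080 for UBTF, -0.073 to 0.024 for NOLC1, -0.038 to 0.088 for NPM3, -0.065 to 0.041 for BOP1, -0.072 to 0.079 for WDR12, -0.14 to 0.0097 for PPAN and -0.070 to 0.016 for NOB1. MXI1 and MXD1 had the lowest CPM of the 40 genes; the part of depth in their spread was not tested.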
